A study of Cricetulus griseus with 8 samples.

Results

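Translation efficiency, the amount of ribosome footprints on an mRNA relative to the amount of that mRNA, was measured for each transcript of control Chinese hamster ovary (CHO) cells. CHO is an established epithelial-like cell line widely used to produce recombinant proteins. The comparison used 4 of the 8 libraries of the series: 2 control footprint libraries (ribosome profiling, replicates 1 and 2) and 2 control RNA libraries (mRNA-seq, replicates 1 and 2), chosen by their titles. The labels give the genetic background of all 4 as WT and the cell line as CHO, and name no vector, clone or treatment for these cells. The other 4 libraries come from CHO cells that express RNG140-GFP and were not compared with the controls. They served to choose pairs of transcripts with neighbouring identifiers, to recognise transcripts with identical counts and, in 1 alternative fit, to help estimate the spread. The labels do not say whether the replicates were separate cultures, so p-values measure the spread between these libraries, which may be technical.

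In ribosome profiling, a nuclease degrades the exposed parts of an mRNA, and the fragments shielded by ribosomes are sequenced. A footprint therefore stands for 1 ribosome on an mRNA, and the ratio of footprints to RNA follows how often ribosomes start on the mRNA and how long they stay. An mRNA can be abundant and carry few ribosomes, for example when its start codon is preceded by other reading frames or when it is held in a repressed particle, and cells use such control for mRNAs of stress responses, iron storage and protein synthesis itself. Per the labels, footprints were made by RNase I digestion, ribosome pelleting and linker ligation with rRNA depletion, and RNA libraries with a stranded mRNA kit. The assay and the library preparation therefore change together, and ribosome density and preparation cannot be told apart in any ratio below.

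The footprint libraries held 9039123 and 4908885 counts and the RNA libraries 35875108 and 31227762. Of 26985 transcripts with a listed length, 6711 had no count in any of the 4 libraries, and 14458 passed the filter on low counts in both assays. The tables give no gene names, and a search of the reference gene table matched 0 of the identifiers. Genes, their positions and sequences and the defining markers of the cell line were therefore not analysed here, and transcripts are described by listed length, level and, for 4 of them, identifier. Levels are given as counts scaled to library size (CPM, after trimmed mean of M-values, TMM, normalization), which puts the bulk of transcripts at a log2 ratio near 0. A log2 ratio of 0 is thus a place in this distribution and not a number of ribosomes. The listed length is a coding length without a stated unit, probably in codons less a trimmed part.

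Libraries of the same assay resembled each other more than libraries of different assays did. Across the tested transcripts, log2 CPM of the 2 footprint libraries correlated with r = 0.99 and that of the 2 RNA libraries with r = 0.997, whereas a footprint and an RNA library correlated with r between 0.792 and 0.801. These values are over transcripts, which are not independent replicates. Per listed length, which is needed to compare levels between transcripts, RNA and footprints correlated with r = 0.84 in replicate 1 and in replicate 2 (Spearman rho = 0.82 in both), over 14458 transcripts. Both quantities are divided by the same length, which by itself adds to this correlation. The SD of the log2 level per length was 1.92 and 1.93 for RNA and 2.24 and 2.25 for footprints in replicates 1 and 2, so footprint levels were spread more widely than RNA levels. With the RNA level per length taken from the other replicate, the slope of footprints on RNA was 0.98 in both.

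**Figure D1:**
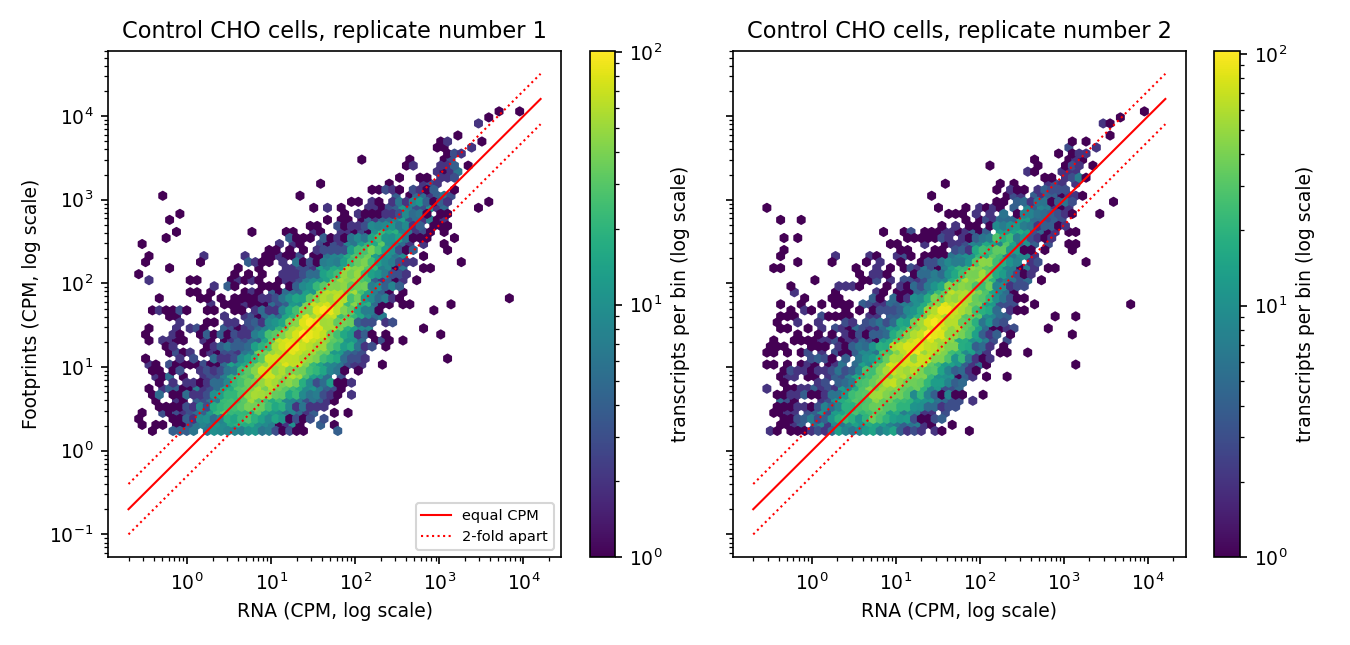
Footprints (y axis, CPM, log scale) against RNA (x axis, CPM, log scale) for 14458 transcripts, 1 panel per replicate number, with shading for the number of transcripts per bin, a solid line at equal CPM and dotted lines 2-fold apart. Both panels show the same band along the line and a scatter of transcripts at the left with under 1 CPM of RNA and far more footprints.

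Footprints were also concentrated on fewer transcripts than RNA was. The 100 most abundant transcripts of each library held 22.2% and 21.8% of footprint counts and 17.3% of the counts in both RNA libraries. The 1000 most abundant held 56.6% and 56.2% of footprint counts and 47.6% of RNA counts in both. Libraries of the same assay thus differed little in these shares, and the assays did not overlap.

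The first comparison asked which transcripts carried more or fewer footprints than their RNA level. Footprints relative to RNA were higher for 5543 transcripts (38.3% of those tested) and lower for 5861 (40.5%) in edgeR's quasi-likelihood test with a Benjamini-Hochberg adjusted p under 0.05. Together 78.9% were called, and the called ratios had a median size of 0.86 on the log2 scale. The median standard error of a ratio was 0.115. A difference of more than 2-fold was supported for 3343 transcripts (23.1%), of which 1464 (10.1%) were higher and 1879 (13%) lower (edgeR's glmTreat, same adjustment). DESeq2 with the same minimum found 1173 higher and 1231 lower. Of the 14458 tested transcripts, both footprint values lay above both RNA values for 6232 and below them for 6676. With 2 libraries against 2, such separation in either direction has a probability of 0.333 for a transcript without a difference. An exact permutation test of a single value therefore cannot go below p = 0.333, so the calls rest on the spread shared across transcripts.

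The translation efficiency of transcripts spanned more than an order of magnitude. In replicate 1 the 5th and 95th percentiles of the log2 ratio were -1.9 and 1.79, which are 12.9-fold apart, and in replicate 2 they were -1.95 and 1.81, 13.5-fold apart. The 25th and 75th percentiles were -0.77 and 0.61 in replicate 1 and -0.79 and 0.61 in replicate 2, a span of 2.6-fold and 2.63-fold. The median was -0.04 in both.

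Over transcripts, the SD was 1.23 in replicate 1 and 1.24 in replicate 2. The SD of the difference between the replicates was 0.3, against 0.28 from counting error alone, so most of the replicate difference was of the size of counting error. The spread between transcripts was therefore several times that between libraries. The ranks of the 14458 ratios agreed between replicates with rho = 0.96. Of the 1445 transcripts with the highest ratio in replicate 1, 1252 (86.6%) were also among the 1445 highest in replicate 2. For the 1445 lowest the share was 80.9%.

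**Figure D2:**
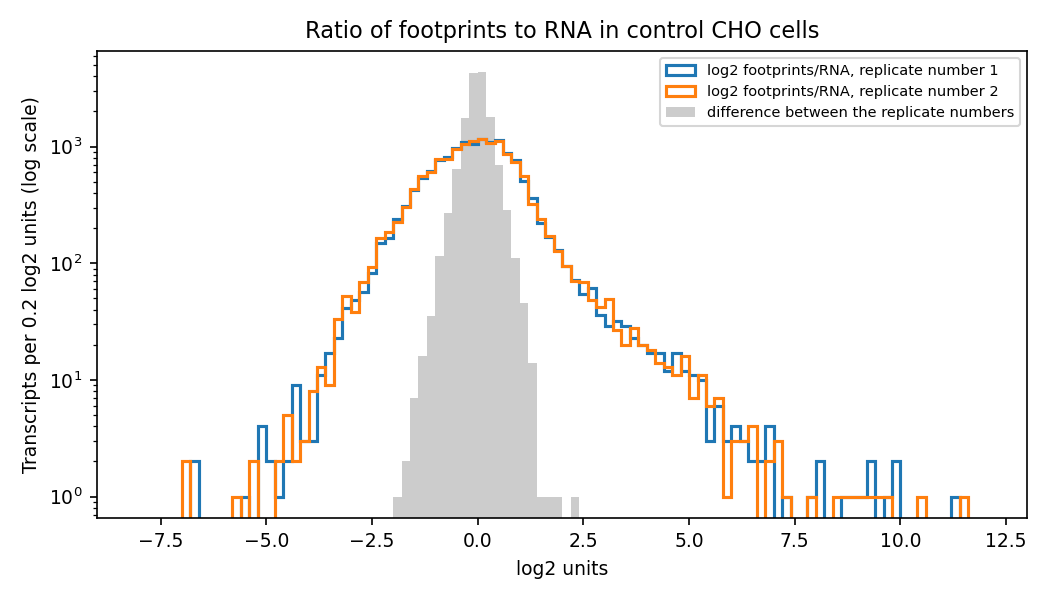
Number of transcripts (y axis, log scale) per 0.2 units of the log2 ratio of footprints to RNA (x axis) in replicate numbers 1 and 2 (outlines) and of the difference between them (grey). The outlines have SDs of 1.23 and 1.24 and the grey distribution 0.3, and the outlines reach further to the right than to the left.

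Among the tested transcripts, the upper end of the distribution was longer than the lower end. The filter can favour this. The footprint libraries held fewer counts, so 10 counts stand for a higher CPM there than in the RNA libraries. Ratios far below 0 therefore needed a high RNA level to be tested, whereas ratios far above 0 did not. The part of the filter in the numbers that follow was not tested. In both replicates, 529 transcripts had footprints more than 4-fold above their RNA and 494 more than 4-fold below it. Beyond 8-fold the numbers were 242 above and 91 below, and beyond 16-fold they were 117 and 12. These numbers include the block of lowest-numbered identifiers described below. All 10 of its tested transcripts were among the 91, and most of the 12 belong to it. The 2 ends differed in their RNA. The 242 transcripts with the highest ratios had a median RNA level of 2.24 CPM and a median listed length of 195.5. The 91 with the lowest ratios had 53 CPM and 597, against a median of 25.1 CPM over all tested transcripts. Since a low RNA level raises the ratio, and since passing the filter at such a level needed many footprints, the RNA level at the upper end is a description of how these transcripts were found.

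ENSCGRT00000016464, of listed length 368, had the highest ratio among transcripts with a mean of at least 10 CPM over the 4 libraries. It passed that limit through its footprints alone. Its footprints reached 1220 CPM in replicate 1 and 862 CPM in replicate 2 (9642 and 3750 counts), with only 0.498 and 0.286 CPM of RNA (20 and 10 counts). The log2 ratio was 11.34 ± 0.37 (SE; edgeR adjusted p = 4.82e-30). This transcript was picked for its ratio, and the rule required both footprint values to lie above both RNA values. The p-value is thus no separate support. The next 10 transcripts in this ranking had log2 ratios from 7.57 to 10.01 and listed lengths from 117 to 439. Their RNA lay between 0.274 and 0.797 CPM and their footprints between 83 and 674 CPM, so they too passed the limit through footprints. Another 2 of these 10 shared the listed length of 368. Reads that fit near-identical copies elsewhere could be divided differently in the 2 assays, and how the authors counted such reads is not given in the sources used here, so these ratios are uncertain and the part of such copies was not tested.

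Among abundant mRNAs, the 1446 with the most RNA (from 121 CPM), the highest ratio belonged to ENSCGRT00000009631, of listed length 323. Its RNA was at 124 and 123 CPM and its footprints at 2970 and 2700 CPM, with at least 4284 counts in each library. The log2 ratio was 4.52 ± 0.07 (SE; edgeR adjusted p = 3.84e-29). The pairs of libraries hardly differed within each assay, and this ratio does not depend on low counts. This transcript was picked by the same rule on ratio and separation, so its p-value is no separate support either.

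At the lower end, ENSCGRT00000025046, of listed length 498, held 57.7 and 53.5 CPM of RNA but 1.77 and 3.45 CPM of footprints (14 and 15 counts). The log2 ratio was -4.55 ± 0.29 (SE; edgeR adjusted p = 2.33e-20), and the replicates gave -5.02 and -3.96. This transcript passed the limit on the mean through its RNA and was likewise picked for its ratio. The 4 transcripts that followed it in the ranking have identifiers close to its own and nearly the same counts, and with it they are probably 1 measurement. Outside the block of lowest-numbered identifiers, the lowest ratio among abundant mRNAs was that of ENSCGRT00000022781, of listed length 1461. Its RNA reached 861 and 847 CPM and its footprints 43.5 and 38.2 CPM (343 and 166 counts). The log2 ratio was -4.37 ± 0.09 (SE; edgeR adjusted p = 9.36e-28). At least 29596 counts per RNA library thus stood against few footprints. For both transcripts the rule required both footprint values to lie below both RNA values, so their p-values are no separate support.

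These rankings leave out the block of lowest-numbered identifiers, presumed to be mRNAs of the mitochondrial genome, which mitochondrial ribosomes translate. Of its 13 transcripts 10 passed the filter, and all 10 were called as lower, beside 40.5% of all tested transcripts. Their log2 ratios lay between -6.65 and -3.37 in replicate 1 and between -6.92 and -3.18 in replicate 2. All 10 were among the 100 lowest ratios of the tested transcripts.

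Some transcripts appeared in 1 assay only. Of 14396 transcripts with at least 100 counts in each RNA library, 6 had no footprint count in either footprint library. Against a floor of 3 counts over both libraries, their RNA was at least 11.9-fold to at least 120.0-fold higher than their footprints. Conversely, 9 of 7111 transcripts with at least 100 counts in each footprint library had no RNA count. Their listed lengths ran from 56 to 230, and their footprint counts from 226 to 3293 in replicate 1 and from 157 to 1778 in replicate 2. Against the same floor, their footprints were at least 801-fold to at least 10400-fold higher than their RNA. For these 9, too, the part of near-identical copies was not tested.

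The next comparison asked how the ratio depended on coding length. Ratios fell step by step with listed length, in both replicates. The transcripts were sorted by listed length into 10 equal classes. In the shortest class (15 to 141) the median log2 ratio was 0.3 in replicate 1 and 0.28 in replicate 2. The decline was shallow at first: the fourth class (279 to 351) still had 0.21 and 0.16. The seventh class (521 to 645) was the first below 0, with -0.05 and -0.08. From there the decline steepened, to -0.36 and -0.4 in the ninth class (822 to 1154) and -0.61 and -0.62 in the longest (1155 to 7641). The shortest class thus lay 1.88-fold and 1.87-fold above the longest in replicates 1 and 2. That difference, -0.91 and -0.9 on the log2 scale, was far larger than the largest gap between replicates within a class, 0.05.

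Calls followed the same order. In the shortest class 49.9% of transcripts were called as higher and 27.9% as lower, beside 38.3% and 40.5% of all tested transcripts. In the longest class 15.1% were higher and 69.2% lower. Beyond 2-fold the contrast was wider. In the shortest class 298 were higher (20.6%) and 93 lower (6.43%), beside 10.1% and 13% of all tested transcripts. In the longest class 18 were higher (1.24%) and 356 lower (24.6%). Transcripts called as higher had a median listed length of 348, those called as lower 545 and those without a call 420.5. Footprints beyond 2-fold above RNA were thus rare on long coding regions, at 1.24% of the longest class beside 10.1% of all.

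Length also went with the spread. Log2 ratios had an SD of 1.45 and 1.44 in the shortest class and 0.89 in both replicates in the longest. The difference between replicates had an SD of 0.38 among the shortest and 0.25 among the longest transcripts. The wider spread of short transcripts was therefore several times their replicate difference as well.

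At the ends of the length range, the medians did not go on at the same pace. The 56 transcripts with a listed length under 50 had medians of 0.22 and 0.33, and 24 were higher and 19 lower, close to the shares of 38.3% and 40.5% among all tested transcripts. They rested on a median of 111 and 58 footprint counts in replicates 1 and 2. The 70 transcripts with a listed length over 3000 had medians of -0.9 and -0.84, with 6 higher and 60 lower, beside the same shares.

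The shares of counts showed the same shift at the long end, but not among the shorter classes. The longest class held 14% of RNA counts in both replicates but 8.87% and 9.09% of footprint counts. The fourth class gained most, from 9.53% and 9.49% in RNA to 12.8% and 12.6% in footprints. The shortest class took nearly equal shares, 12.2% and 11.9% for RNA and 13% and 12.4% for footprints.

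**Figure D3:**
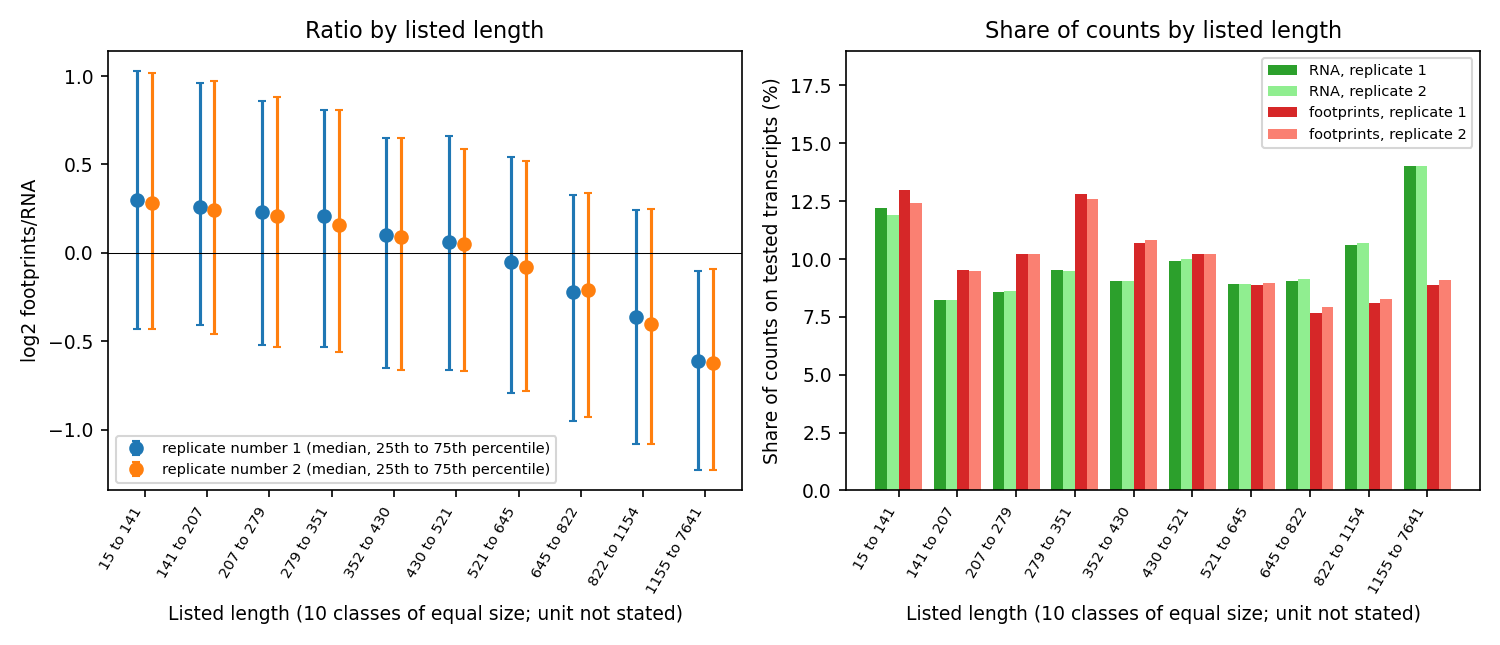
Left, the log2 ratio of footprints to RNA (median with bars from the 25th to the 75th percentile, replicate numbers 1 and 2) in 10 classes of listed length, which fell from 0.3 and 0.28 to -0.61 and -0.62. Right, the share of counts on tested transcripts (%) in the same classes for both RNA and both footprint libraries, where the share of the longest class went from 14% in RNA to 8.87% and 9.09% in footprints.

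Longer transcripts also had more RNA reads (rho = 0.27 between mean RNA CPM and listed length over 14458 transcripts). The length relation was therefore examined within classes of RNA CPM, with the level taken from one RNA library and the ratio from the other replicate. RNA per listed length was not matched: at equal CPM, a longer transcript has less RNA per length. The length relation was present in each of 3 equal classes of RNA CPM. With the ratio from replicate 1, rho with listed length was -0.24 at low, -0.25 at middle and -0.32 at high RNA. With the ratio from replicate 2 it was -0.23, -0.23 and -0.32, over 4819 or 4820 transcripts per class. In the high class, the median log2 ratio went from 0.35 in the shortest of 5 length classes to -0.61 in the longest (ratio from replicate 1). In the low class it went from 0.38 to -0.3. Over all tested transcripts rho was -0.28, and -0.26 given the RNA level.

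The third comparison asked how the ratio depended on RNA level. With the level given as CPM, the median ratio hardly changed apart from both ends. Correlations differed with the definition of level, as described below. The level was again taken from one replicate and the ratio from the other. In 10 equal classes of RNA CPM, the medians of the second to ninth classes (5.12 to 122 CPM) lay between -0.23 and -0.07. The highest class stood above them, with medians of 0.26 (ratio from replicate 1) and 0.23 (ratio from replicate 2). Of the 1446 transcripts with the highest mean RNA level, 774 (53.5%) were called as higher and 531 (36.7%) as lower, beside 38.3% and 40.5% of all tested transcripts. Beyond 2-fold, 153 were higher and 207 lower, which is close to the shares of 10.1% and 13% among all tested transcripts.

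The lowest class, up to 5.15 CPM, appeared highest of all, with medians of 0.59 and 0.61 and a 95th percentile of 4.64 and 4.55. This value depended on the filter on footprints. Among transcripts with at least 10 counts in both RNA libraries and no filter on footprints (16640 transcripts, with 0.5 added to each count), the lowest of 10 RNA classes had medians of -0.38 and -0.35. Only 20% of its transcripts had enough footprints to be tested, and 139 of 1664 had no footprint count. In the class above it 65.1% were tested, and in the highest all. The rise in the highest class was still seen without the filter, at 0.23 and 0.2, beside -0.23 to -0.13 for the 8 classes between the ends.

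**Figure D4:**
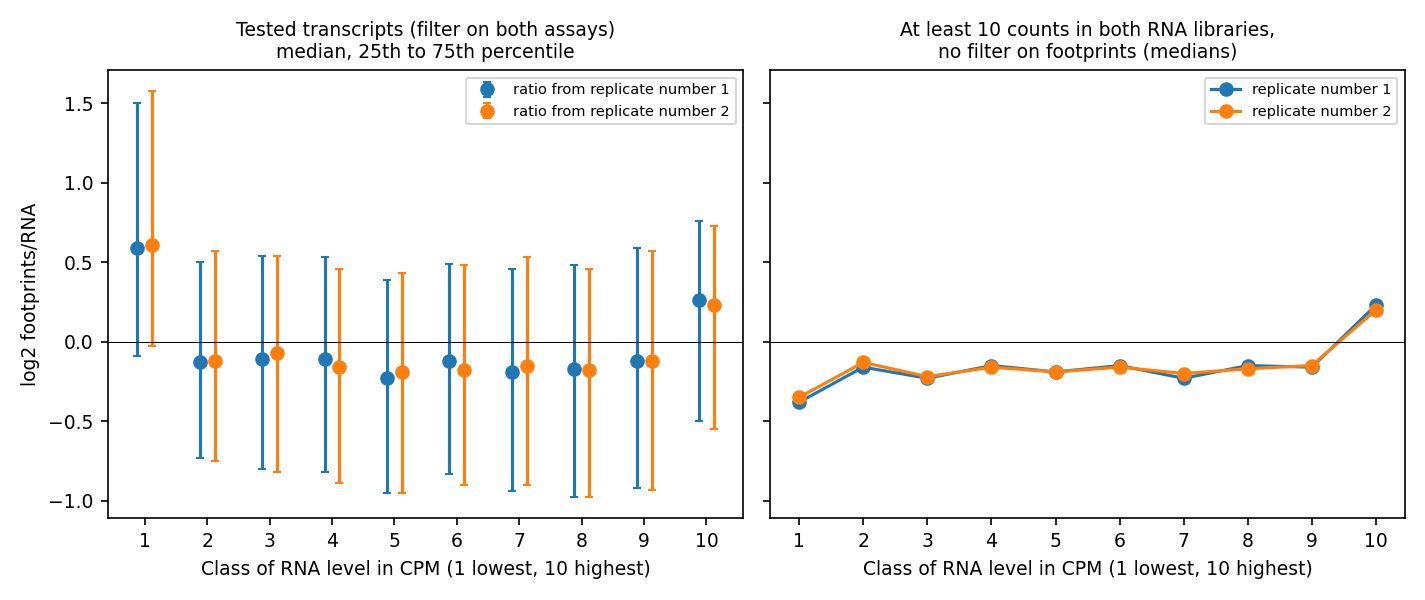
Log2 ratio of footprints to RNA by class of RNA level (1 lowest, 10 highest, by CPM), for replicate numbers 1 and 2. Left, tested transcripts (median, 25th to 75th percentile), with 0.59 and 0.61 in the lowest class. Right, medians without a filter on footprints, with -0.38 and -0.35 in the lowest class, while the highest class stayed above 0 in both panels.

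Over all tested transcripts rho between RNA CPM and the ratio was -0.1 (mean of both ways of taking level and ratio from different replicates). The sign depended on how level was defined: rho was 0.06 with RNA per listed length and 0.06 among the 10925 transcripts with at least 10 CPM in both RNA libraries. With both restrictions it was 0.25. RNA per length holds the length itself, which goes with the ratio, so the last value is not separate from the length relation. These correlations share libraries and transcripts and are given as descriptions.

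The RNA level went with precision more plainly than with the ratio. Between replicates, the SD of the difference fell from 0.51 in the lowest to 0.13 in the highest class of RNA CPM. The ratio itself had an SD of 1.73 and 1.7 in the lowest class and of between 1.05 and 1.15 in the 9 others. The spread between transcripts among abundant mRNAs was thus many times the replicate difference.

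The last comparison asked whether isoforms differ in translation efficiency. The tables name no genes, so isoforms were approached through identifiers, which are often consecutive for the transcripts of a gene. Transcripts with consecutive identifiers had similar ratios. The median size of the difference in log2 ratio was 0.324 for neighbouring identifiers without identical counts (9163 pairs), 0.786 for identifiers 2 apart and 0.998 for identifiers 50 apart. RNA levels were close for many neighbours: in RNG140-GFP cells, the larger summed RNA count was less than 25% above the smaller for 39.1% of neighbouring identifiers and for 10.4% of identifiers 50 apart. The latter share shows how often transcripts that far apart met this condition. A further 342 neighbouring pairs had identical counts in all 8 libraries and hold 1 measurement each.

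Separate pairs of neighbouring identifiers that met this condition on RNG140-GFP RNA and were not identical were then tested in control cells for a difference in ratio (transcript by assay interaction, edgeR's diffSpliceDGE). Of 2771 pairs, 278 (10%) differed at an adjusted p under 0.05, and 191 of them by more than 2-fold. The count fell to 164 without the first footprint library, to 170 without the first RNA library and to 185 without the second, and the limit on the RNA fold moved it to 116 (of 2164 pairs within 1.1-fold) or 862 (of 3731 within 2-fold). The median difference over all pairs was 0.0316 on the log2 scale, and 74.7% of pairs differed by less than 0.1.

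Nearly all called pairs stood in rows of the deposited table that are not neighbours. Its rows do not follow the identifiers, and 2199 of the 2771 pairs stood in neighbouring rows, whereas 572 did not. Of the 2199, 8 (0.364%) were called, beside 10% of all pairs. Of the 572, 270 (47.2%) were called, with a median difference of 0.538. Tested alone, pairs chosen for neighbouring rows gave 3 calls among 2353. The condition on rows was added after these values were seen, and the tables do not say what their order means. Whether a pair belongs to 1 gene is not known, so the 270 calls cannot be read as differences between isoforms.

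**Figure D5:**
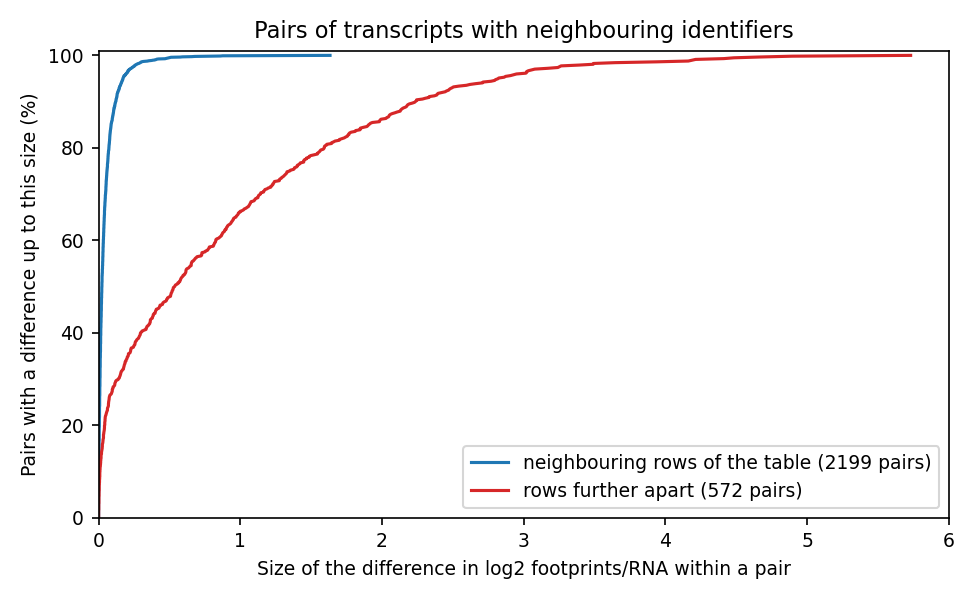
Cumulative share of pairs (y axis, %) by the size of their difference in log2 ratio of footprints to RNA (x axis), for pairs with neighbouring identifiers that stand in neighbouring rows (2199) or further apart (572). The first curve rises steeply, with a median of 0.0225, and the second slowly, with a median of 0.538.

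The 8 pairs with the largest called difference all stood in rows further apart, and differed by between 4.16 and 5.73 on the log2 scale in size. In the first, a transcript of listed length 335 held 39.9 and 40.7 CPM of RNA and 1670 and 1610 CPM of footprints. Its partner of listed length 542 held 23.8 and 21.7 CPM of RNA and 16.6 and 18.9 CPM of footprints. The difference of -5.73 was -5.91 in replicate 1 and -5.51 in replicate 2 (edgeR adjusted p = 5.14e-08). In the last of the 8, of listed lengths 1043 and 344, the longer transcript had 154 and 157 CPM of RNA but 27.7 and 26.9 CPM of footprints, and the shorter 319 and 300 CPM of RNA and 938 and 1010 CPM of footprints.

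Among pairs in neighbouring rows, which are described here after their values were seen, the clearest difference joined listed lengths of 349 and 97. Their RNA was alike, at 349 and 367 CPM for the longer transcript and 326 and 337 CPM for the shorter. Footprints were not, at 1990 and 2040 CPM for the longer and 555 and 652 CPM for the shorter. The log2 difference was 1.63, with 1.75 and 1.52 in replicates 1 and 2 (edgeR adjusted p = 2.11e-05). A second pair, of listed lengths 369 and 221, differed by 1.28 (1.37 and 1.14; edgeR adjusted p = 0.00039), again with the longer transcript higher. Its RNA was at 13.2 and 12.9 CPM for the longer and 12.4 and 12.2 CPM for the shorter, and its footprints at 65.5 and 70.8 against 23.8 and 30.4 CPM. The other 6 called pairs differed by between 0.31 and 0.88 in size. These calls rest on the adjustment over all 2771 pairs, most of whose calls stood in rows further apart. Tested alone, pairs chosen for neighbouring rows gave only 3 calls among 2353. Of the 6 called pairs with unequal lengths, the longer transcript was higher in 4 and lower in 2. Over all pairs in neighbouring rows, called or not, it was higher in 1023 and lower in 1041. Among the called pairs in rows further apart it was higher in 106 and lower in 163. Over all pairs in such rows, called or not, it was higher in 244 and lower in 313. These counts were not tested.

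Pairs with close RNA counts could share most of their reads, which leaves little room for a difference. Separate pairs of neighbouring identifiers were therefore chosen again without the limit on RNA counts, which gave a set other than the one above. The 2274 of them in neighbouring rows were sorted by the fold between their RNA counts in RNG140-GFP cells. Within 1.1-fold, 6 of 1357 pairs were called (0.442%), with a median difference of 0.0175, close to the median gap of 0.0138 between replicates. From 25% above to 2-fold, 42 of 314 were called (13.4%). At 4-fold or more, 58 of 129 were called (45%), with a median difference of 0.493, against 0.265 between replicates. Over all 2274 pairs, 166 (7.3%) were called. For pairs in rows further apart the share called was 76% at 4-fold or more, with a median difference of 1.07. That share was close to the 71.8% of all 3279 such pairs, and to the 72.8% from 25% above to 2-fold. In neighbouring rows, differences in ratio thus grew as the RNA counts diverged, and so did the gap between replicates. In each of the 5 classes of fold, differences stayed smaller in neighbouring rows than in rows further apart.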

How the data were processed

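Each deposited table lists, without a header, an identifier, a length and an unnormalized whole-number read count for every transcript of 1 library. Per the submitters' processing notes, the tools included TopHat2 2.0.9, Bowtie2 2.1.0 and CASAVA 1.8, whose roles are not recorded. Build, annotation and counting step: not given in the sources used here. The length, in another unit that the deposited tables do not state, was listed for 26985 of 34490 transcripts. Its lowest value was -9.

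The 4 control libraries were fitted in edgeR 4.0.16 (R 4.3.3) with TMM scaling, 2 group means and 2 residual degrees of freedom. Transcripts had to pass filterByExpr (minimum count 10) in each assay, which kept between 99.13% and 99.33% of counts. P-values were adjusted over all 14458 transcripts. Standard errors are Wald errors of the quasi-likelihood fit. The tests were tried on simulated data. DESeq2 1.42.0 was an alternative. Ratios per replicate pair footprints and RNA by number only. Of the tested transcripts, 388 repeat the counts of another, and reads that fit several transcripts appear to be counted on each, so neighbouring transcripts are not independent and totals overstate reads. Intervals of counts cover counting error only.

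Without gene names, planned gene lists could not be run. The rule for named transcripts took, per direction, the largest called ratio and the largest among the 10% with the most RNA, with a mean of at least 10 CPM, at least 10 counts per library, no overlap of assays and no identical copy, outside the block of lowest identifiers; the next 10 and the 8 largest pairs are given by length. The measure, members and lists were chosen with earlier results of these data known.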

Additional observations from a re-analysis of the deposited data

How the results depend on the processing

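The counts of higher and of lower transcripts moved by less than 1.5 times under every alternative run except DESeq2, which found 1231 lower beyond 2-fold in place of 1879. With 1 library left out there were 4934 to 5281 higher and 5278 to 5711 lower, and beyond 2-fold 1316 to 1401 and 1642 to 1786, where the lone library was assumed to vary like the others. A replicate block gave 5566 higher and 5911 lower (1476 and 1894 beyond 2-fold). Same-numbered libraries deviated together by r = 0.058, and the labels do not tie the numbers to cultures. The 4 named transcripts kept their direction and call wherever they were tested. The SD of the log2 ratio, 1.22 for the mean of the replicates, was 1.23 and 1.24 for single replicates, 1.08 at a minimum count of 50 and 1.71 without a filter (pseudocount of 0.5 counts). The correlation with listed length, -0.28, was -0.35 at a minimum count of 50, -0.21 without a filter, -0.27 for replicate 2 and -0.26 given the RNA level. The correlation with RNA level, -0.1, was -0.23 at a minimum count of 50 and -0.22 without a filter, and reversed to 0.06 with RNA per listed length, to 0.06 at 10 CPM of RNA or more (chosen after seeing the data), and to 0.43 against the footprint level, which enters the ratio with positive sign. In place of 278 pairs of neighbouring identifiers called among 2771, other settings called 116 of 2164 (RNA within 1.1-fold), 862 of 3731 (within 2-fold), 179 of 2117 (minimum count of 50), 3 of 2353 (neighbouring rows required) and 242 of the same 2771 (replicate block). Most of the 278 cannot be read as differences between isoforms, as said above. How many pairs were shared between settings was not counted. Neighbouring rows and the block were added for pairs after seeing the data. Leaving out 1 library gave 164 (without the first footprint library) to 210 pairs, with 170 and 185 without the first and second RNA library. The second footprint library, with 4908885 counts, limits what can be seen of weakly translated mRNAs. Thinning all libraries to that total gave 5054 higher and 5305 lower.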
